A study of Mus musculus with 14 samples.

Results

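The 10 genes described here encode metallothioneins (Mt1, Mt2), superoxide dismutases (Sod1, Sod2, Sod3), catalase (Cat), glutathione peroxidases (Gpx1, Gpx3, Gpx4) and a peroxiredoxin (Prdx1). They were taken by gene name from a deposited table of 54955 named or unnamed genes; each of the 10 names has 1 row, and all 10 were measured well above the filter on low values. RNA came from adipose tissue of C57BL/6 mice at 21 weeks of age in 14 libraries: 7 labelled wild type (WT, replicates 3 to 9) and 7 labelled ko-dectin1 (KO, replicates 1 to 7). Dectin-1, encoded by Clec7a, is the receptor of myeloid cells for fungal β-glucans, and the comparison asks how adipose transcripts differ when it is missing. The labels name neither the fat depot, nor the knockout allele, nor the cells in which it was made, nor the source of the wild-type mice. Sex, diet and treatment are not labelled either, nor whether each library is a separate mouse, so p-values measure the spread between these samples.

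These genes form the first line of defence against reactive oxygen. Superoxide dismutases turn superoxide into hydrogen peroxide: Sod1 in the cytosol with copper and zinc, Sod2 in mitochondria with manganese, and Sod3 outside the cell. Catalase, in peroxisomes, breaks hydrogen peroxide down directly, glutathione peroxidases do so with glutathione, and peroxiredoxins with thioredoxin. Metallothioneins are small cysteine-rich proteins that hold zinc and copper and can scavenge radicals. Their genes are induced by zinc through the metal-sensing factor MTF1 and by glucocorticoids. In fat, these enzymes meet peroxide from fatty acid oxidation, mitochondria and resident myeloid cells.

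The coding sequences of both metallothioneins are shown because their cysteine codons define the family. They are from GENCODE M21 transcripts Mt1-201 and Mt2-201, 5′ to 3′, with the cysteine codons TGC and TGT in capitals.
Mt1: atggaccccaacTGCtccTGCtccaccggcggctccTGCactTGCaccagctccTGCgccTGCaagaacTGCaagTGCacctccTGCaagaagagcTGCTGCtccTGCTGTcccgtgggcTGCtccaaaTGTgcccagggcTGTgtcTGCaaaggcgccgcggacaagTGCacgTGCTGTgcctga
Mt2: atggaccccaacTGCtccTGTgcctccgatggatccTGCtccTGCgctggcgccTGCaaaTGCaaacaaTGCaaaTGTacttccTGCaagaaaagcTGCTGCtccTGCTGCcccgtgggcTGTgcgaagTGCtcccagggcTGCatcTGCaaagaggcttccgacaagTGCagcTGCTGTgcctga
Each is 186 bases long and holds 20 cysteine codons, and all 20 stand at the same codon in both. The sequences are identical at 148 of 186 bases (79.6%), so reads could be shared between them, and how the authors' counting treated such reads is not given in the sources used here.

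Glutathione peroxidases 1, 3 and 4 carry selenocysteine in the active site, encoded by a TGA inside the reading frame that would otherwise end translation. The 21 codons around that TGA, in capitals, are shown from GENCODE M21 transcripts Gpx1-201, Gpx3-201 and Gpx4-201 because the codon ties these members to the selenoprotein genes described later.
Gpx1: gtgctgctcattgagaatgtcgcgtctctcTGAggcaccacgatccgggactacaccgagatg
Gpx3: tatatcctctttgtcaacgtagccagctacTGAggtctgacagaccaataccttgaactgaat
Gpx4: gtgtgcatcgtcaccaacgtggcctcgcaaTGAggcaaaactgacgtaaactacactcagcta
The TGA is codon 47 of Gpx1-201, codon 73 of Gpx3-201 and codon 129 of Gpx4-201. Over these 63 bases Gpx1 and Gpx4 are identical at 55.6% of positions, Gpx3 and Gpx4 at 46.0% and Gpx1 and Gpx3 at 42.9%.

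Levels of the targeted gene overlapped between the groups. Clec7a stood at 4.02 to 10.5 TPM (a share of all transcripts, scaled by gene length) in the libraries labelled KO and at 4.10 to 18.9 TPM in WT, with a log2 fold change of -0.48 ± 0.33 (standard error, SE; limma adjusted p = 0.59). That value depended on the fit: it was -0.91 with the adipocyte marker mean as a covariate, -0.69 with the B and plasma cell marker mean, -0.72 without the 3 libraries of few B-cell transcripts (KO replicate 7 and WT replicates 4 and 7), and -0.14 with a replicate block in 10 libraries. Unadjusted p in these 4 fits was 0.0042, 0.011, 0.039 and 0.71, and limma's adjusted p 0.25, 0.25, 0.46 and 0.85. A gene-level value does not show which exons were read, and each direction given here compares the KO label with the WT label. Adipocyte markers were present in all 14 libraries. Of the 14 fixed markers, Adipoq and Plin1 among them, the lowest single value was 43.6 TPM (Pparg), and their summed level was 17660 to 81501 TPM in KO (median 38788) and 43012 to 85537 TPM in WT (median 55052). B-cell markers set 3 libraries apart (KO replicate 7 and WT replicates 4 and 7), with sums of 199, 117 and 92.2 TPM against 828 to 2820 TPM in the other 11. The depth of the libraries is unknown, since TPM keeps no read number.

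Together the 10 genes took 0.345% to 0.813% of all TPM in KO (median 0.495%) and 0.576% to 0.989% in WT (median 0.650%). With both groups pooled, Sod1 had the highest mean level (1431 TPM), followed by Gpx3 (1249 TPM), Gpx4 (1114 TPM) and Gpx1 (903 TPM). Mt1 (542 TPM), Prdx1 (316 TPM), Cat (297 TPM), Mt2 (222 TPM), Sod2 (180 TPM) and Sod3 (96.0 TPM) came next in that order. The order differed by group: by group means, Gpx4 (1046 TPM) stood above Gpx3 (981 TPM) and Sod2 (169 TPM) above Mt2 (156 TPM) in KO, and Cat (340.5 TPM) above Prdx1 (331 TPM) in WT. Neighbours mostly overlapped: Gpx3 exceeded Gpx4 in 9 of 14 libraries (3 KO and 6 WT), Gpx4 exceeded Gpx1 in 9, Prdx1 exceeded Cat in 9 and Mt2 exceeded Sod2 in 8. Gpx1 exceeded Mt1, and Sod2 exceeded Sod3, in 14 of 14. Levels depend on the gene lengths in the deposited table, which for Mt1 (633 bases) and Mt2 (388 bases) equal those of GENCODE M21 transcripts other than the ones printed above.

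**Figure D1:**
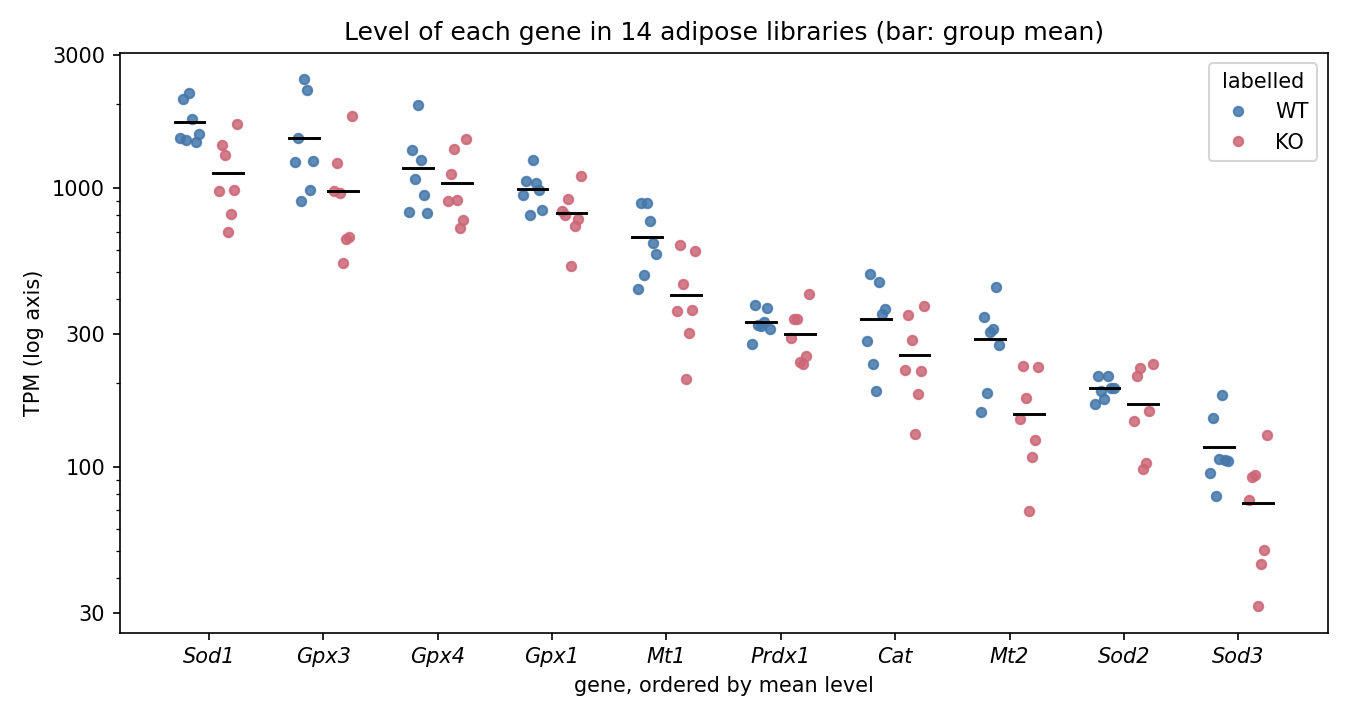
TPM of the 10 genes in each of the 14 libraries on a log axis, ordered by mean level; points are libraries, WT at the left and KO at the right of each gene, and bars are group means. The KO mean lies below the WT mean in 10 of 10 genes, and the points of the groups overlap in each.

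None of the 10 genes passed the test across all genes. Values were compared as log2(TPM + 1) by limma over 14719 genes, and a gene was called changed at a Benjamini-Hochberg adjusted p under 0.05. That rule called 3 genes (0.0204% of those tested; Nnt, the mitochondrial transhydrogenase, Dynlt1b and Lgals3bp, all lower in KO) and 0 of the 10 members, whose adjusted p lay between 0.26 and 0.77. The fold change was below 0 for 10 of 10 members, where 45.4% of all tested genes were below 0, and the median of the members was -0.54 beside 0.036 for all genes tested. At an unadjusted p under 0.05, 5 of 10 members were lower (Mt1, Mt2, Sod1, Sod3, Gpx3) and 0 higher, where 6.74% of all tested genes were lower. The groups overlapped in each member, while 0.319% of all tested genes had groups that did not overlap. The members were chosen with these directions known, so the counts describe them and add no independent support.

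Of the 10 genes, the metallothionein Mt2 (ENSMUSG00000031762) had the largest difference on the log2(TPM + 1) scale, while in TPM the means of Sod1 and Gpx3 lay further apart. It stood at 69.4 to 230 TPM in KO, with a median of 149, and at 158 to 443 TPM in WT, with a median of 306. Of the WT libraries 5 of 7 lay above the highest KO library, and 4 of 7 KO libraries lay below the lowest WT library. The means were 156 ± 61 and 289 ± 96 TPM (SD, n = 7 per group), which is a log2 fold change of -0.92 ± 0.28 (SE; 95% interval -1.53 to -0.32; limma adjusted p = 0.26).

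Mt1 (ENSMUSG00000031765) stood at 207 to 625 TPM in KO, with a median of 365, and at 437 to 884 TPM in WT, with a median of 638. For both metallothioneins KO replicate 4 was the lowest library and KO replicate 2 the highest of its group. The log2 fold change of Mt1 was -0.72 ± 0.25 (SE; limma adjusted p = 0.32). Both transcripts moved together over the libraries: the log2 ratio of Mt1 to Mt2 had an SD of 0.26 over the 14 libraries, against 0.60 for Mt1 and 0.72 for Mt2 alone. That ratio averaged 1.43 ± 0.10 in KO against 1.23 ± 0.34 for WT (SD, n = 7 per group), a difference that did not pass a 2-sided exact permutation test (0.20, p = 0.16). WT replicate 8 stood apart in it at 0.53, below 1.07 to 1.53 in the other WT libraries. In that library Mt2 was at its highest (443 TPM) and so was the sum of 6 hepatocyte markers, at 4055 TPM against 14.2 to 1648 TPM elsewhere. The part of that in Mt2 was not tested. Without WT replicate 8 the ratio differed by 0.081 and the log2 fold change of Mt2 was -0.81.

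The remaining metallothioneins were near the floor of the table. Mt3 was at 0.49 to 5.77 TPM in KO and 1.20 to 5.90 TPM in WT, and Mt4 was under 1 TPM in each library and was not tested.

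The bases before the start sites of Mt1 and Mt2 are shown because these neighbouring genes moved together and because metal response elements are the known sites of MTF1. The windows are 250 bases from RefSeq's GRCm38.p6, on the plus strand, chr8:94178839-94179088 for Mt1 and chr8:94172368-94172617 for Mt2. These start sites, taken from RefSeq's windows, lie 6471 bases apart. Other start sites of Mt1 and Mt2 were not searched, so positions and counts of matches hold for these windows alone. Capitals mark matches, on either strand, to the element's core, searched as TGCACNC and TGCGCNC.
Mt1: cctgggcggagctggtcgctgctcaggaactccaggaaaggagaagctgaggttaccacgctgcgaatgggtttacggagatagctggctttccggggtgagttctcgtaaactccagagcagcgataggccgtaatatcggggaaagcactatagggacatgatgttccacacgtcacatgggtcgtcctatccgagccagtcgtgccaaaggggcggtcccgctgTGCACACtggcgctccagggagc
Mt2: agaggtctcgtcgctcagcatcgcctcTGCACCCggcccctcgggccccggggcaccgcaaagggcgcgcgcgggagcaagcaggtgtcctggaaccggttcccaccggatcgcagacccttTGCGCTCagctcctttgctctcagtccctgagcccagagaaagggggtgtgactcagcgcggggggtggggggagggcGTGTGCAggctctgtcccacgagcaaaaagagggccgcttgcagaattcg
In the 300-base windows, which run on for 50 bases past the start, Mt1 held 3 matches and Mt2 held 4, with no overlap among them. The matches of Mt1 lie at -23 to -17, 3 to 9 and 21 to 27 from the start site, and those of Mt2 at -223 to -217, -128 to -122, -50 to -44 and 5 to 11. Among 32817 such windows, 25.7% held at least 1 match, 1.97% at least 3 and 0.518% at least 4. Promoter entries were found for 9 of the 10 genes, all but Sod3. No window of the other 7 genes held a match to either core. The core of the antioxidant response element, the site of NRF2, searched on both strands as TGACNNNGC, occurred 1 time each in Mt2, Sod1 and Prdx1 and in 12.4% of all windows. A match is a string of letters, and no binding was measured.

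Among the superoxide dismutases, the log2 fold changes of Sod1 and Sod3 lay further below 0 than that of Sod2, with overlapping 95% intervals. Sod1 (ENSMUSG00000022982), the cytosolic enzyme, stood at 697 to 1705 TPM in KO, with a median of 983, and at 1472 to 2201 TPM in WT, with a median of 1565. All KO libraries but KO replicate 7 lay below the lowest WT library. The means were 1133 ± 364 and 1729 ± 304 TPM (SD, n = 7 per group), with a log2 fold change of -0.65 ± 0.21 (SE; 95% interval -1.09 to -0.22; limma adjusted p = 0.27).

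Sod2 (ENSMUSG00000006818), the mitochondrial enzyme, stood at 98.4 to 234 TPM in KO, with a median of 159, and at 169 to 213 TPM in WT, with a median of 193. The KO libraries spread on both sides of WT: 4 of 7 lay below the lowest WT library, and KO replicates 2, 3 and 7 lay within or above the WT range. The coefficient of variation was 33.7% in KO and 8.78% in WT, and the log2 fold change was -0.26 ± 0.20 (SE; limma adjusted p = 0.62).

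The balance of Sod2 and Sod1 is given as a description, since this ratio was chosen with the lower Sod1 level known from earlier results, and a test of it would support nothing. The log2 ratio of Sod2 to Sod1 ran from -2.96 to -2.54 in KO and from -3.64 to -2.93 in WT, with means of -2.75 ± 0.14 and -3.15 ± 0.25 (SD, n = 7 per group). Of the KO libraries 6 of 7 lay above the highest WT library. The means differed by 0.40 on the log2 scale. A ratio within a library does not depend on the scaling of that library. Without WT replicate 6, the lowest library, the difference was 0.32, and without the 3 libraries of few B-cell transcripts it was 0.41.

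**Figure D2:**
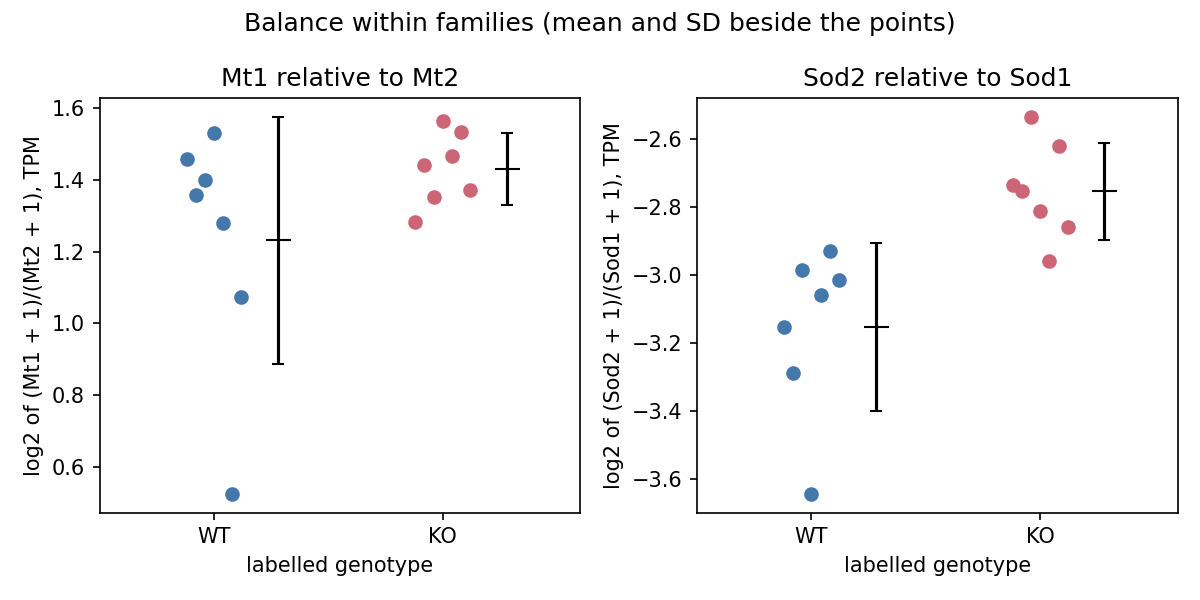
The log2 ratio of Mt1 to Mt2 (left) and of Sod2 to Sod1 (right) in each library by labelled genotype; points are libraries, and the bar beside them gives the mean and SD of 7. Sod2 relative to Sod1 lies above the highest WT library in 6 of 7 KO libraries, and WT replicate 8 stands low in Mt1 relative to Mt2.

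Sod3 (ENSMUSG00000072941), the secreted enzyme, stood at 31.7 to 130 TPM in KO, with a median of 76.4, and at 79.1 to 181 TPM in WT, with a median of 106. KO replicates 4, 5 and 6 were the lowest at 50.6 TPM or less, and WT replicate 7 the highest. The log2 fold change was -0.75 ± 0.28 (SE; limma adjusted p = 0.36). Ccs, the chaperone that loads copper into Sod1, stood at 38.9 ± 4.9 TPM in KO against 45.8 ± 5.0 for WT (SD, n = 7 per group), with a log2 fold change of -0.23 ± 0.11 (SE; limma adjusted p = 0.43).

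Catalase (Cat, ENSMUSG00000027187) stood at 132 to 380 TPM in KO, with a median of 223, and at 187 to 494 TPM in WT, with a median of 354. WT replicate 6 was the lowest WT library for catalase, while it was the highest of all 14 for Sod1, Gpx1, Gpx3 and Gpx4. The log2 fold change of Cat was -0.43 ± 0.26 (SE; 95% interval -0.99 to 0.13; limma adjusted p = 0.55).

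Among the glutathione peroxidases, the secreted Gpx3 (ENSMUSG00000018339) varied widely. It stood at 541 to 1822 TPM in KO, with a median of 964, and at 901 to 2461 TPM in WT, with a median of 1251. The coefficient of variation was 45.0% in KO and 40.3% in WT, and the log2 fold change was -0.65 ± 0.30 (SE; limma adjusted p = 0.43). Gpx1 (ENSMUSG00000063856), the cytosolic and mitochondrial form, stood at 528 to 1111 TPM in KO, with a median of 801, and at 801 to 1267 TPM in WT, with a median of 990. Its log2 fold change was -0.30 ± 0.16 (SE; limma adjusted p = 0.49). Gpx4 (ENSMUSG00000075706), which reduces lipid peroxides in membranes, stood at 720 to 1509 TPM in KO, with a median of 909, and at 815 to 1983 TPM in WT, with a median of 1076. The groups lay largely on top of each other, with a log2 fold change of -0.16 ± 0.23 (SE; 95% interval -0.65 to 0.33; limma adjusted p = 0.77). In WT replicate 6, highest for all 3 peroxidases, the sum of 7 red blood cell markers was also the highest, at 8227 TPM against 1458 to 4721 TPM elsewhere, and its part in these levels was not tested. Without that library the log2 fold changes were -0.51 for Gpx3 and -0.025 for Gpx4. A pseudogene, Gpx4-ps2, was listed at 1.39 to 5.08 TPM, and reads may be shared with Gpx4.

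The rest of the family was lower in level. Gpx7 and Gpx8, both of the endoplasmic reticulum, stood at 14.2 ± 4.7 and 65.2 ± 31.2 TPM in KO and at 22.3 ± 7.2 and 67.4 ± 17.2 TPM in WT (SD, n = 7 per group). Their log2 fold changes were -0.61 and -0.13 (limma adjusted p = 0.36 and 0.83). Gpx2, Gpx5 and Gpx6 did not reach the filter and were not tested.

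Prdx1 (ENSMUSG00000028691), a cytosolic peroxiredoxin, stood at 234 to 417 TPM in KO, with a median of 290, and at 276 to 383 TPM in WT, with a median of 323. KO libraries lay on both sides of the WT range, and the log2 fold change was -0.16 ± 0.15 (SE; limma adjusted p = 0.67). With quantile normalization it was 0.034. The other 5 peroxiredoxins also had values below 0, with 0 of 6 changed. Prdx4, of the endoplasmic reticulum, had the smallest p of the family, at 33.5 ± 6.8 against 45.7 ± 5.3 TPM (SD, n = 7 per group), a log2 fold change of -0.45 ± 0.13 (SE; limma adjusted p = 0.24). Prdx5, Prdx6 and Prdx2 had log2 fold changes of -0.43, -0.42 and -0.22, and Prdx3, the mitochondrial form, of -0.25.

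The same libraries were low for nearly all members. KO replicate 4 was the lowest of the 14 for 8 of the 10 genes and KO replicate 5 for the other 2, Gpx4 and Prdx1. KO replicates 4 and 5 were the 2 lowest of the KO group for 9 of 10 genes. KO replicate 7 was the highest KO library for 8 of 10, with KO replicate 2 the highest for Mt1 and Mt2. All 3 libraries with few B-cell transcripts lay above the median of the 14 for 10 of 10 genes.

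Adipocyte markers moved with the members. Of the 14 adipocyte markers 13 had fold changes below 0 (median -0.61) and 0 were changed. KO replicate 4 had the lowest sum (17660 TPM), followed by KO replicate 5 (26443 TPM) and KO replicate 6 (30468 TPM), and WT replicate 4 had the highest. B and plasma cell markers had 0 of 8 below 0 (median 1.05). Their sums were 199 to 2820 TPM in KO (median 2077) and 92.2 to 2427 TPM in WT (median 1565). T-cell markers had 0 of 8 below 0 (median 0.97). Their sums were 32.5 to 969 TPM in KO (median 633) and 9.86 to 978 TPM in WT (median 511.5). KO replicate 7 and WT replicates 4 and 7 had the lowest sums in both lists. No tested B and plasma cell, T-cell, macrophage, stromal progenitor or skeletal muscle marker was changed. Macrophage markers had 9 of 11 below 0 (median -0.36), with sums of 575 to 1784 TPM in KO and 405 to 2322 TPM in WT. Stromal progenitor markers had 7 of 8 below 0 (median -0.50), with sums of 467 to 1981 TPM in KO and 759 to 3025 TPM in WT. Skeletal muscle markers had 8 of 8 below 0 (median -1.73), with sums of 18.1 to 7763 TPM in KO and 28.7 to 24070 TPM in WT. The parts of the immune, stromal and muscle transcripts in the results were not tested, save for the B and plasma cell fit given next. In bulk tissue, fewer cells of a type and less RNA per cell cannot be told apart.

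With the mean log2 level of the adipocyte markers as a covariate in the same fit across all genes, the differences were smaller. Their standard errors were smaller too, for Mt1 0.14 against 0.25 without the covariate. Mt2 then stood at -0.50, Mt1 at -0.34, Sod1 at -0.36, Sod3 at -0.25, Gpx3 at -0.22, Gpx1 at -0.11 and Cat at -0.023. Sod2, Gpx4 and Prdx1 turned to 0.045, 0.062 and 0.030. In that fit 7 of 10 members were below 0 with a median of -0.16, and 0 were changed (smallest limma adjusted p = 0.29). Unadjusted limma p was 0.0081 for Sod1, 0.015 for Sod3, 0.016 for Mt2 and 0.029 for Mt1, and above 0.05 for the rest. Without the covariate these genes and Gpx3 were under 0.05. With the B and plasma cell marker mean instead, 10 of 10 remained below 0 with a median of -0.37, and without the 3 libraries of few B-cell transcripts 10 of 10 with a median of -0.50.

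**Figure D3:**
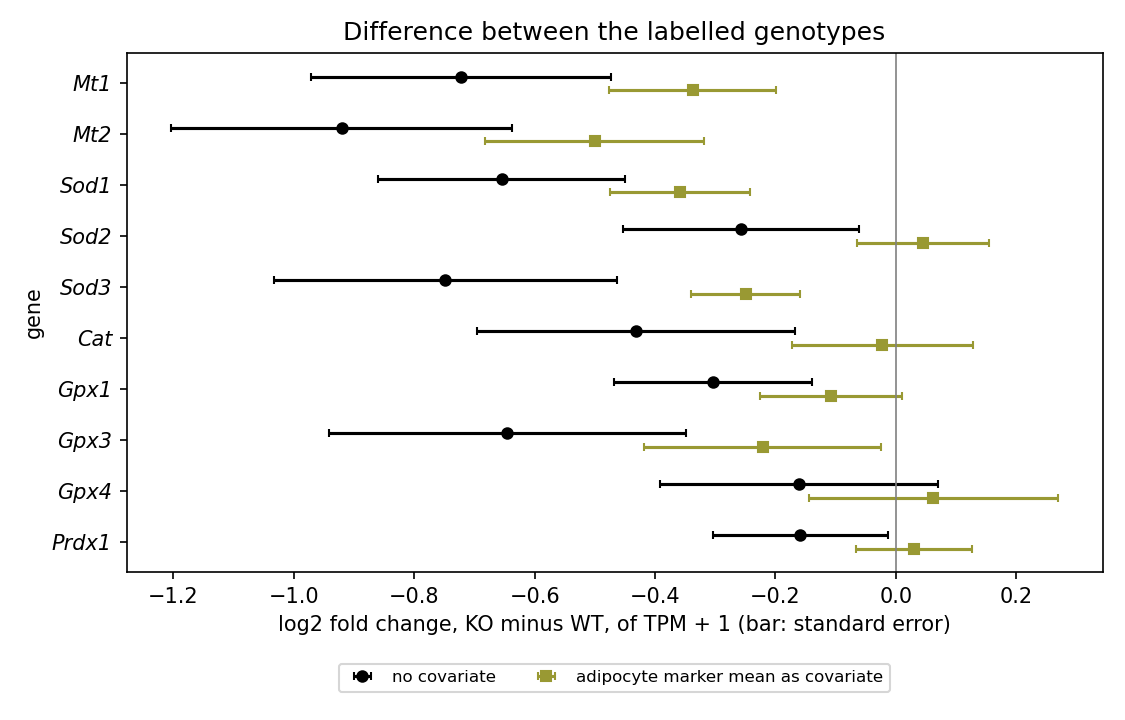
Log2 fold change of TPM + 1, KO minus WT, of each gene with its standard error, without a covariate (circles) and with the adipocyte marker mean as a covariate (squares). All 10 circles lie below 0; with the covariate 7 of 10 squares do, and each lies nearer to 0 than its circle.

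**Figure D4:**
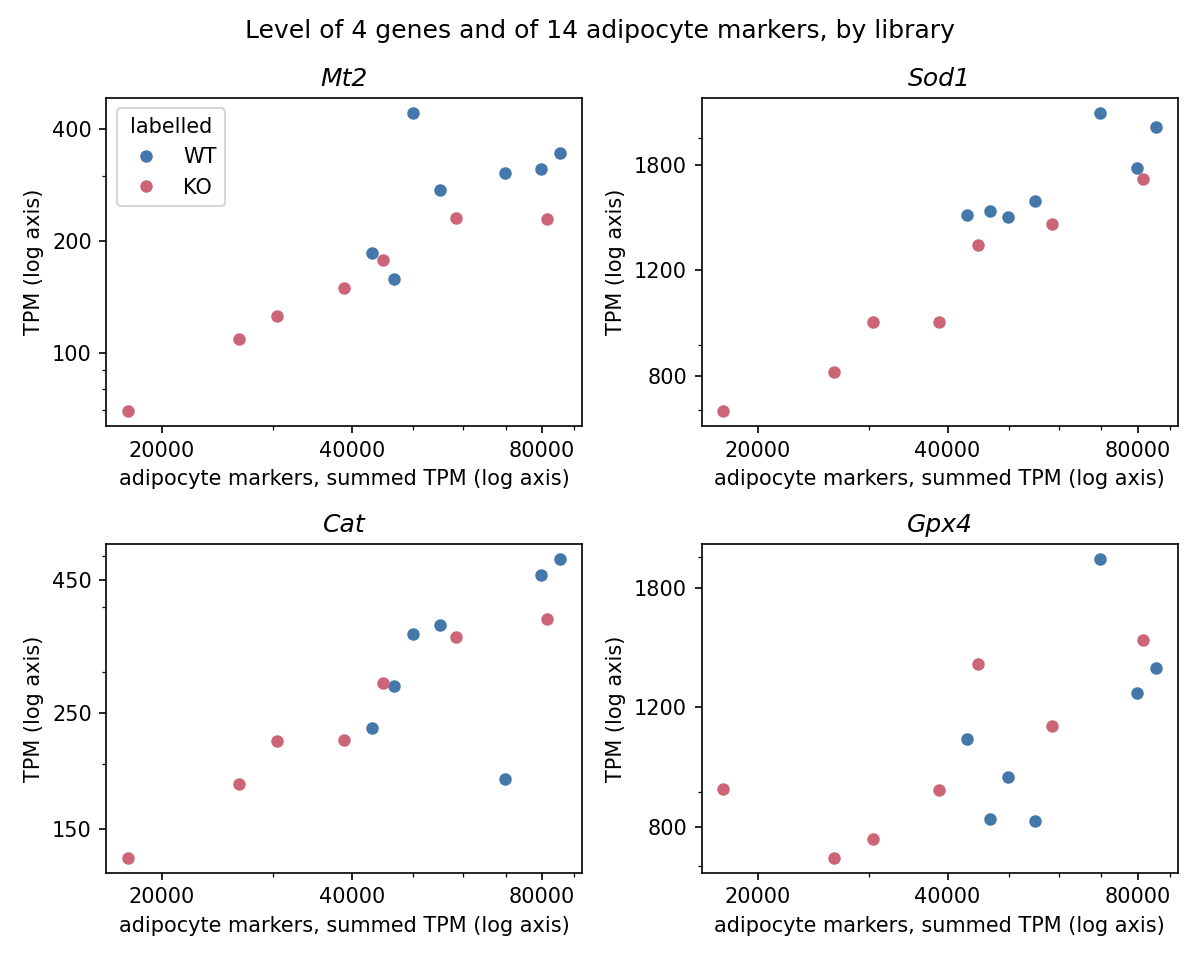
TPM of Mt2, Sod1, Cat and Gpx4 against the summed TPM of 14 adipocyte markers in each library, both on log axes. KO replicate 4 is at the lower left for Mt2, Sod1 and Cat; Gpx4 is more scattered, and WT replicate 6 is high for Gpx4 and Sod1 and low for Cat.

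Patterns over the libraries were close among most members and least so for Gpx4. Pearson's r of the log2 values over 14 libraries was 0.96 for Mt1 and Sod1, 0.94 for Mt1 and Mt2, and 0.27 for Cat and Gpx4; over the 11 libraries rich in B-cell transcripts it was 0.95, 0.93 and -0.037. These values share the makeup of the tissue piece and are a description. By the same measure, the genes outside the 10 most like each member were Gde1 and Hacd2 for Mt1 (r = 0.97 for both), Sugct and Trf for Mt2 (r = 0.95 for both), and C1qtnf12 and Phgdh for Sod1 (r = 0.99 and 0.98). For Sod2 they were Unc5a and Dgat2, an enzyme of triglyceride synthesis (r = 0.97 and 0.96), for Sod3 Smoc1 and Itgb5 (r = 0.98 for both), and for Cat Ucp3 and Sfxn1 (r = 0.97 for both). For Gpx3 they were Copz2 and Emc9 (r = 0.97 for both), for Gpx1 Ifi27l2a and Tysnd1 (r = 0.98 and 0.97), for Gpx4 Ndufb11, a respiratory chain subunit, and Mgmt, a DNA repair protein (r = 0.95 and 0.94), and for Prdx1 Aldh1a7 and Cspg4 (r = 0.93 and 0.92).

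Around these 10 genes, 121 further genes of the pathway were fixed in lists, of which 107 were tested. None was changed (smallest limma adjusted p = 0.17); at an unadjusted p under 0.05, 22 were lower and 2 higher, where 6.74% and 4.67% of all tested genes were. Their median log2 fold change was -0.10, beside 0.036 for all genes tested.

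Genes listed for the glutathione and thioredoxin systems mostly had fold changes below 0, where 45.4% of all tested genes did. In glutathione synthesis and reduction 10 of 11 were below 0 (median -0.29), and 0 were changed. Gss, glutathione synthetase, stood at 12.5 ± 1.9 TPM in KO against 16.8 ± 2.7 for WT, and Gsr, glutathione reductase, at 23.7 ± 4.0 against 29.9 ± 4.6 TPM (SD, n = 7 per group; limma adjusted p = 0.27 and 0.41). Chac1, which degrades glutathione, had a log2 fold change of -0.96 ± 0.39 (SE), and Ggt5 of -0.34 ± 0.16. In the thioredoxin system 7 of 10 were below 0 (median -0.17). Txn1, the cytosolic thioredoxin, stood at 141 ± 25 against 168 ± 18 TPM (SD, n = 7 per group; limma adjusted p = 0.43), and Sesn2 and Srxn1, the latter of which repairs overoxidised peroxiredoxins, had log2 fold changes of -0.48 and -0.41. Sesn1 stood at 0.31.

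Of 21 tested genes of selenoprotein synthesis and supply, 16 were below 0, with a median of -0.095, and 0 were changed. At an unadjusted p under 0.05, 5 were lower and 0 higher, where 6.74% and 4.67% of all tested genes were. Msrb1, a selenium-dependent methionine sulfoxide reductase, had the smallest p of all listed genes. It stood at 76.2 to 132 TPM in KO and 134 to 255 TPM in WT, with no overlap. Of all tested genes, 0.211% had all KO libraries below all WT libraries. The log2 fold change of Msrb1 was -0.77 ± 0.17 (SE; limma adjusted p = 0.17). Selenom stood at 38.8 ± 9.6 against 62.2 ± 15.9 TPM and Sephs2, which makes the selenium donor, at 37.9 ± 8.4 against 54.1 ± 11.8 TPM (SD, n = 7 per group; limma adjusted p = 0.22 and 0.29). Selenon had a log2 fold change of -0.49. Secisbp2, which binds the selenocysteine insertion element, stood at 0.37 ± 0.24 (SE; limma adjusted p = 0.56).

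Genes of metal sensing and transport had no common direction: 15 of 27 were below 0 (median -0.028). Mtf1, the zinc sensor that drives metallothionein genes, stood at 5.73 ± 1.21 TPM in KO against 5.18 ± 2.26 for WT, and Slc30a1, a zinc exporter and known MTF1 target, at 5.27 ± 0.57 against 5.85 ± 1.87 TPM (SD, n = 7 per group; limma adjusted p = 0.73 and 0.87). The zinc importer Slc39a1 had the smallest p of the list, at 42.5 ± 7.6 against 59.6 ± 8.8 TPM (SD, n = 7 per group), a log2 fold change of -0.48 ± 0.14 (SE; limma adjusted p = 0.22). Ferritin heavy chain (Fth1) and the transferrin receptor (Tfrc) stood at log2 fold changes of -0.44 ± 0.16 and 0.42 ± 0.16 (SE; limma adjusted p = 0.34 and 0.35), and Slc30a7, a zinc transporter of the secretory pathway, at 0.38 ± 0.16.

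Glucocorticoid-responsive genes, listed because glucocorticoids induce metallothioneins, had 6 of 14 below 0 (median 0.057). Fkbp5 and Tsc22d3, both well-known targets, stood at 17.3 ± 2.0 and 83.0 ± 24.8 TPM in KO and at 18.1 ± 5.6 and 79.0 ± 23.7 TPM in WT (SD, n = 7 per group; limma adjusted p = 0.97 and 0.87). Pdk4, Hsd11b1, Angptl4 and Dusp1 had the smallest p, with log2 fold changes of -0.76, -0.46, -0.68 and 0.35. Among sources of superoxide and peroxide 5 of 15 were below 0 (median 0.071). The monoamine oxidases Maoa and Maob and the adipocyte amine oxidase Aoc3 had log2 fold changes of -0.50, -0.56 and -0.62. Cybb, Cyba, Ncf1 and Ncf4, of the phagocyte oxidase, stood between 0.071 and 0.65.

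**Figure D5:**
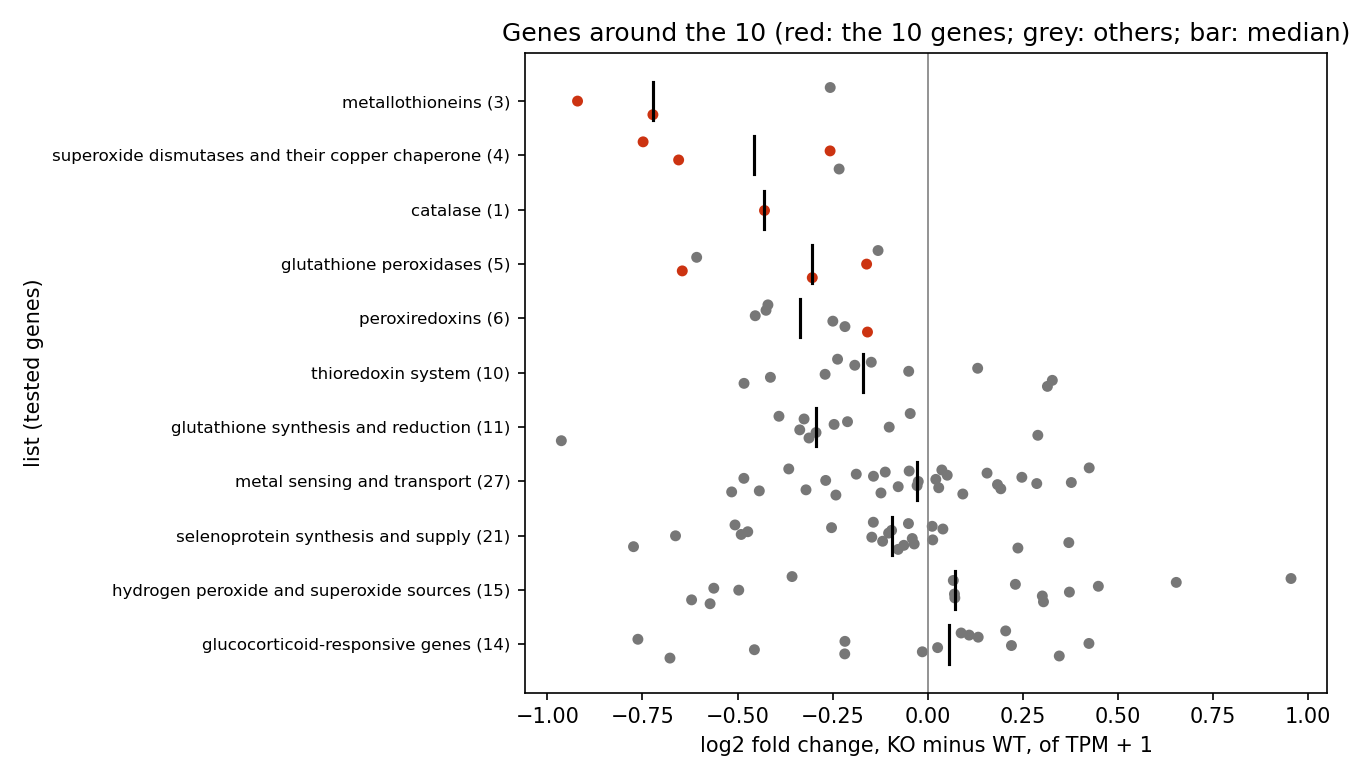
Log2 fold change of TPM + 1, KO minus WT, of each tested gene in the 11 fixed lists, with the 10 genes in red, other genes in grey and a bar at the list's median. Points of the dismutase, peroxidase and peroxiredoxin families lie below 0, while metal transport, oxidant sources and glucocorticoid genes spread on both sides.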

How the data were processed

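RNA of 14 adipose tissue libraries had been taken up in Trizol and sequenced after an Illumina TruSeq preparation, per the labels' protocols. The authors deposited 1 table of TPM values with a length for each gene; the unit was read from its values, since every library adds up to nearly the same sum. Bowtie 0.12.2, mm8 and mm9 are listed in the submitters' processing notes without saying what each was for. How TPM was computed, and how strand and shared reads were treated, is not given in the sources used. Coordinates are therefore printed for RefSeq's promoter windows alone (GRCm38.p6).

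Rows of equal symbol were summed. Genes with 1 TPM or above in 7 or more libraries (14719) were compared as log2(TPM + 1) by limma-trend (limma 3.58.1, R 4.3.3, robust, 2-sided), with Benjamini-Hochberg adjustment over all of them; this scale understates the change of low genes. The procedure was tested in 5 runs on simulated data with 200 of 14719 genes changed. It found 56.8% of changes by a factor of 2 and 92% of those by a factor of 4. False calls averaged 0.8 per run. Changes by a factor of 2, and some by a factor of 4, can therefore be missed. The fit to the data called 3 genes, and with fewer true changes than the simulated 200 the adjusted threshold is stricter. The shares found in the simulation may thus be too high for these data. The Mt1 to Mt2 ratio was compared by exact permutation over 3432 splits (scipy 1.17.1); a planned test of Sod2 to Sod1 is not used, because that ratio was chosen with the Sod1 level known. Members and lists were chosen with earlier results of these data known. Named genes are the members, Clec7a, up to 4 genes of smallest p per list, and the 2 genes most correlated with each member; Mtf1, Slc30a1, Fkbp5, Tsc22d3, Secisbp2, Gpx4-ps2, Gpx8, Prdx3, Cybb, Cyba, Ncf1, Ncf4 and genes under the filter were named after their values were seen. Some genes that this rule would name are not reported here. The alternatives tried were the pseudocount, filter, scaling, row summing, left-out libraries, a replicate block and marker covariates.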

Additional observations from a re-analysis of the deposited data

How the results depend on the processing

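Over 26 alternatives for each of the 10 genes, 0 of 260 fits passed the threshold and 256 kept a fold change below 0. The exceptions were Prdx1 with quantile normalization (0.034) and, with the adipocyte marker mean as a covariate, Sod2 (0.045), Gpx4 (0.062) and Prdx1 (0.030). With 1 library left out, Mt2 ranged from -1.05 to -0.75, Mt1 from -0.83 to -0.57, Sod1 from -0.76 to -0.55, Sod3 from -0.91 to -0.57, Gpx3 from -0.81 to -0.51, Cat from -0.56 to -0.29, Gpx1 from -0.38 to -0.21, Sod2 from -0.35 to -0.14, Gpx4 from -0.26 to -0.025 and Prdx1 from -0.24 to -0.10. The smallest adjusted p among all these fits was 0.096 (Sod1 without KO replicate 7). The count of changed genes over the whole table was 3, and became 1 with no filter, 8 with median-ratio scaling (3 higher, 5 lower), 19 with quantile normalization (13 higher, 6 lower), 6 without mitochondrially encoded genes (2 higher, 4 lower), 1 with rows as deposited, 9 with the adipocyte covariate (5 higher, 4 lower), 5 with the B-cell covariate, 0 without the 3 libraries of few B-cell transcripts and 0 to 6 with 1 library left out (leaving out KO replicate 7 gave 6, KO replicate 2 gave 1 and WT replicate 6 gave 2, while dropping any of KO replicates 1, 5, 6 or of the remaining WT replicates gave 0). None of the 10 genes was among them in any of these fits. In the 10 libraries with shared replicate numbers, the replicate block gave 0 changed genes and so did the fit without it. Same-numbered libraries correlated in their deviations from the group means at -0.67 to 0.80, so the numbers were not taken as pairs. The difference in the Sod2 to Sod1 ratio was 0.32 to 0.44 with 1 library left out, and 0.47 with the replicate block (5 pairs); it is a description with no test. That of Mt1 to Mt2 was 0.081 to 0.25 with 1 library left out and passed in none of its 19 alternatives. Library depth is unknown, so no counting error can be given, and differences of the size seen for Gpx4 and Prdx1 lie within the spread between libraries.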
